A study of Mus musculus with 6 samples.

Results

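Transcripts of 10 plasma proteins that hepatocytes secrete were followed in red cell precursors of the mouse fetal liver. They were the albumin family genes Alb and Afp, the apolipoprotein genes Apoa1, Apoa2 and Apob, the carrier genes Ttr and Trf, the glycoprotein gene Ahsg, and the fibrinogen chain genes Fgb and Fgg. The genes were given by name, and each of the 10 was found on a single row among the 23119 rows of the deposited table. The study holds 6 RNA-seq libraries of erythroid cells from C57BL/6 fetal liver at embryonic day 13.5, sorted by flow cytometry as positive for CD71 (the transferrin receptor) and for Ter119 (a surface antigen of maturing red cells). By their labels 3 of them are Tfam-WT and the other 3 are Tfam-KO. Tfam encodes a protein that packages and transcribes mitochondrial DNA. The labels name no treatment, Cre driver or floxed allele, and do not tie a replicate to an embryo or litter, so a p-value here covers only the spread between libraries, which may be technical.

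The fetal liver is the main site of red cell production before birth, and its erythroblasts mature among hepatoblasts and young hepatocytes. Those liver cells make most plasma proteins, and transcription factors of the HNF1, HNF4, FOXA and C/EBP families drive the corresponding genes. Erythroblasts are not known as a source of albumin or fibrinogen, and a sort for Ter119 selects against liver cells.

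Levels are RPKM, the read number of a gene divided by transcript length and by library size. The 18 erythroblast markers found as rows, led by the anion exchanger gene Slc4a1, the heme synthesis gene Alas2 and the iron importer gene Slc25a37, summed to 15580 to 20855 RPKM, and all 18 passed the filter. Tfam was at 7.22, 8.44 and 5.72 RPKM in WT replicates 1 to 3 and at 5.92, 7.22 and 6.25 in KO replicates 1 to 3 (exact two-sided permutation test, p = 0.7). Its groups overlapped, so the genotype labels have no check from this table, whose gene-level values do not separate exons. WT replicate 3 stood apart in depth and in its RPKM sum. That sum was 814665 in WT replicate 3, against 422534 to 535013 in each other library. Levels below are not scaled to it unless stated. Depth, estimated from the smallest values of genes with a single annotated transcript, was about 13900000 reads for WT replicate 3, against 23700000 to 28300000 for each other library.

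The 10 secreted protein transcripts were trace components of these libraries, and their level differed more between replicates than between genotypes. Their sum was 88.0, 57.4 and 41.9 RPKM in WT replicates 1 to 3 and 82.8, 139.9 and 15.4 in KO replicates 1 to 3. This was 0.00287% to 0.0324% of all RPKM in a library. KO replicate 2 held the highest level of 9 of the 10 genes and KO replicate 3 the lowest of 9, so both extremes fell in the KO group. In a bulk sample, fewer liver cells and less RNA per liver cell cannot be told apart.

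**Figure D1:**
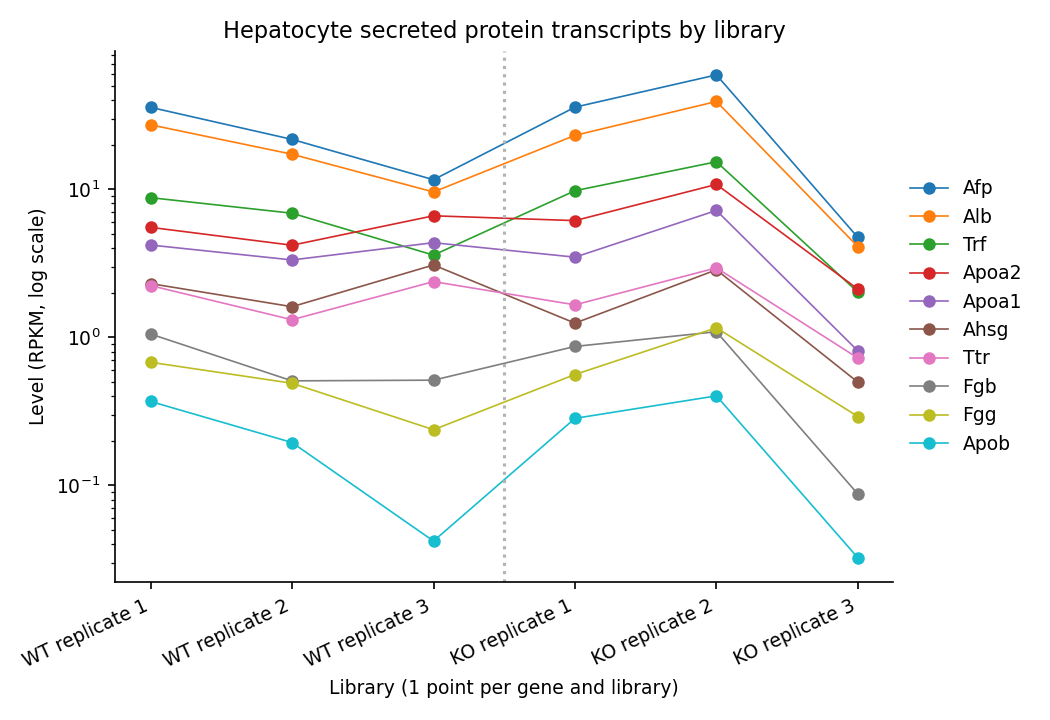
Level of each of the 10 transcripts (RPKM, log scale) in the 3 WT and 3 KO libraries, 1 point per gene and library, with lines joining the points of a gene. Alb ranges from 4.09 RPKM in KO replicate 3 to 39.1 in KO replicate 2, and the WT and KO points overlap for every gene.

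The albumin family made up most of the signal. Alb encodes serum albumin, the most abundant plasma protein after birth, and Afp encodes alpha-fetoprotein, its fetal relative. Afp was at 35.7, 21.7 and 11.6 RPKM in WT replicates 1 to 3 and at 35.8, 59.1 and 4.72 in KO replicates 1 to 3. Alb was at 27.2, 17.2 and 9.57 RPKM in WT and at 23.1, 39.1 and 4.09 in KO. For both genes KO replicate 2 was highest and KO replicate 3 lowest, with a ratio of highest to lowest library of 12.5 for Afp and 9.57 for Alb. About 197 to 1882 reads per library stood behind Alb and 230 to 2887 behind Afp. Afp made up 27.6% to 43.2% of the summed level of the 10 genes and Alb 22.8% to 30.9%.

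Afp exceeded Alb in 6 of 6 libraries. The ratio of Afp to Alb was 1.31, 1.26 and 1.21 in WT and 1.55, 1.51 and 1.15 in KO. KO replicates 1 and 2 lay above the WT range and KO replicate 3 below it. The means of 1.26 ± 0.0514 in WT and 1.41 ± 0.219 in KO (SD, n = 3) were not separated by an exact permutation test (two-sided p = 0.4). With 3 against 3 libraries this test cannot give a p under 0.1.

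The DNA just upstream of the start site is shown for the searched members that carried an HNF1 core. A link between these sequences and the levels across libraries was not tested. The windows are the 250 bases before the RefSeq start, 5′ to 3′ on the gene's strand, in build GRCm38.p6. The expression values were made on build mm9, and no coordinates were converted. They lie at chr5:90460620-90460869 (plus strand) for Alb, chr5:90490464-90490713 (plus strand) for Afp and chr3:83049864-83050113 (minus strand) for Fgb. Capitals mark the HNF1 core GTTAAT and the C/EBP core TTGCNNAA, each on either strand.
Alb: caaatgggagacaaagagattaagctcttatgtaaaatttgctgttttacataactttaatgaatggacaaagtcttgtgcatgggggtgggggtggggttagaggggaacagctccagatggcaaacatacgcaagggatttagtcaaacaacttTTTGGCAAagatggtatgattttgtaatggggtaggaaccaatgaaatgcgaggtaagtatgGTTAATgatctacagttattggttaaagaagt
Afp: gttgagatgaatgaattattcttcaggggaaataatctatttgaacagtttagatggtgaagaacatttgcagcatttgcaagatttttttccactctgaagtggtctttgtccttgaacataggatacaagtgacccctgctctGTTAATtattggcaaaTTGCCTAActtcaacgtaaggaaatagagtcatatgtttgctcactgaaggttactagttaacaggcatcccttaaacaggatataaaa
Fgb: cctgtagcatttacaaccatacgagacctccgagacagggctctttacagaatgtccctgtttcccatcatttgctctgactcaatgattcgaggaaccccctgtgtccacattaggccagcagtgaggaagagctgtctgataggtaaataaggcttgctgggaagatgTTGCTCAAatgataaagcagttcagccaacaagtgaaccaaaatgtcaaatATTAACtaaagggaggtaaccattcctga
The HNF1 core lies 32 to 27 bases before the start in Alb, 105 to 100 in Afp and, on the opposite strand, 29 to 24 in Fgb. Of the 10 genes, 8 had windows that were searched, and 3 of these 8 held the HNF1 core, against 6.43% of 32851 windows of the same length. Ttr and Trf were not searched, so the counts say nothing of their motifs. Members were counted as genes, with 9 windows over the 8 genes, while the background was counted as windows. The C/EBP core was in 6 of 8 (Alb, Afp, Ahsg, Apoa2, Apob and Fgb), against 9.56% of windows. The HNF4 core CAAAGT was in 2 of 8 (12.6% of windows), the nuclear receptor core AGGTCA in 2 (14.02%), CCAAT in 3 (33.8%) and TATAAA in 3 (12.4%), all on both strands. Within the Alb, Afp and Fgb windows no matches overlap each other. Matches to letters are descriptions and no binding was measured.

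The iron and hormone carriers followed at lower levels. Trf encodes transferrin, the plasma iron carrier whose receptor CD71 was used for the sort. It was at 8.76, 6.88 and 3.58 RPKM in WT and at 9.76, 15.3 and 2.01 in KO, with the same highest and lowest libraries as Alb. Ttr encodes transthyretin, which carries thyroxine and the retinol-binding protein. It was at 2.23, 1.31 and 2.37 RPKM in WT and at 1.65, 2.94 and 0.722 in KO. Ttr differed from Trf in WT replicate 3, which was the highest WT library for Ttr and the lowest for Trf. Ahsg encodes fetuin-A, a plasma glycoprotein that binds calcium phosphate. It was at 2.30, 1.61 and 3.07 RPKM in WT and at 1.24, 2.85 and 0.496 in KO. Ahsg is the member whose highest RPKM was in WT replicate 3. As a share of a library's RPKM sum it was highest in KO replicate 2.

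Among the apolipoproteins, Apoa1 and Apoa2 encode the main proteins of high-density lipoprotein and Apob the large scaffold protein of low-density lipoprotein. Apoa2 was at 5.52, 4.18 and 6.61 RPKM in WT and at 6.13, 10.8 and 2.11 in KO. Apoa1 was at 4.19, 3.32 and 4.35 RPKM in WT and at 3.47, 7.18 and 0.807 in KO. In both, WT replicate 3 was the highest WT library and KO replicate 3 the lowest of all. Apob was the lowest of the 10 genes, at 0.368, 0.194 and 0.0419 RPKM in WT and at 0.283, 0.401 and 0.0323 in KO. WT replicate 3 and KO replicate 3 were both far below the other 4 libraries for Apob, on about 8 and 11 reads.

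Fgb and Fgg encode the beta and gamma chains of fibrinogen, the clot-forming protein. Fgb was at 1.05, 0.507 and 0.512 RPKM in WT and at 0.866, 1.09 and 0.0871 in KO. Fgg was at 0.677, 0.488 and 0.237 RPKM in WT and at 0.559, 1.16 and 0.291 in KO. Fgg was the member whose lowest level was in WT replicate 3, where about 6 reads stood behind it. The ratio of Fgb to Fgg ran from 0.299 in KO replicate 3 to 2.16 in WT replicate 3. These libraries had the fewest reads behind the fibrinogen genes. For this ratio the groups overlapped (exact permutation test, two-sided p = 0.2). With mean levels of 0.685, 0.568 and 0.220 RPKM, Fgb, Fgg and Apob did not reach the mean of 1 RPKM needed for the test across genes, and the other 7 members did.

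By mean level the order was Afp, Alb, Trf, Apoa2, Apoa1, Ahsg, Ttr, Fgb, Fgg and Apob, all per length. In 6 of the 9 adjacent pairs the higher gene was higher in every library. The exceptions were Trf over Apoa2, which held in 4 of 6 libraries, Ahsg over Ttr, in 3 of 6, and Fgb over Fgg, in 4 of 6. Those neighbours thus changed order between libraries, and their differences in level were not tested. Across libraries the SD on the log2(RPKM + 1) scale was 1.23 for Afp, 1.08 for Alb, 0.88 for Trf, 0.72 for Apoa1, 0.64 for Apoa2, 0.55 for Ahsg and 0.43 for Ttr. The median SD of the 8302 rows with a mean of at least 1 RPKM was 0.26, and 1.13% of them varied as much as Alb. That share was 0.94% for Afp, 1.72% for Trf, 3.08% for Apoa1, 4.85% for Apoa2, 9.20% for Ahsg and 19.2% for Ttr. This scale compresses low values, so the SD of 0.19 for Apob does not show a steady gene.

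The 10 genes varied together across the 6 libraries. Over the 45 pairs of members the median Pearson r of log2(RPKM + 1) was 0.85, from 0.39 for Apob with Ahsg to 0.997 for Alb with Afp, and the median Spearman rho was 0.77. With deviations from the group means in place of the values, the median r was 0.87. One component carried 82.8% of the variance of the 10 standardised profiles and a second 13.3%. All members of a library share its depth and its composition, and the libraries are few, so these are descriptions.

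Alb served as the reference for single relations, each over 6 libraries and with exact two-sided permutation p-values. Afp had r = 0.997 and rho = 0.943 with Alb (exact permutation p = 0.00278 and 0.0167). Trf had r = 0.987 and rho = 0.943 (exact permutation p = 0.00278 and 0.0167). Apoa1 had r = 0.858 and rho = 0.657 (exact permutation p = 0.0264 and 0.175), and Apoa2 r = 0.812 and rho = 0.6 (exact permutation p = 0.0556 and 0.242). Ttr had r = 0.744 and rho = 0.657 (exact permutation p = 0.0889 and 0.175). Ahsg was least like Alb, with r = 0.603 and rho = 0.371 (exact permutation p = 0.207 and 0.497). The 3 low members had r = 0.963 for Fgb, 0.949 for Apob and 0.868 for Fgg (exact permutation p = 0.00278, 0.00139 and 0.0278), with rho = 0.943, 1 and 0.943 (exact permutation p = 0.0167, 0.00278 and 0.0167). Adjusted over the 8301 rows that were correlated with Alb, the exact permutation p was 0.452 for Afp and Trf and 0.647 for the other 4 tested members (0.574 to 0.729 for rho), and the lowest of any row was 0.452. The smallest unadjusted p that 6 libraries can give is 0.00139.

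An r of at least 0.8 with Alb, a bound chosen after the values were seen, was reached by 4 of the other 6 tested members (Afp, Trf, Apoa1 and Apoa2). Of all rows, 2.81% reached it. Without WT replicate 3 the share was 6 of 6 members and 6.72% of rows, without KO replicate 3 it was 2 of 6 and 7.85%, and without KO replicate 2 it was 2 of 6 and 3.08%. With libraries scaled to their RPKM sum it was 5 of 6 and 12% of rows, and after quantile normalization 2 of 6 and 2.45%. When WT replicate 3 and KO replicate 3, the libraries farthest from the median of Alb, were both left out, r was 0.978 for Afp, 0.939 for Trf, 0.934 for Apoa1, 0.941 for Apoa2, 0.988 for Ttr and 0.7999 for Ahsg. It was 0.897 for Fgb, 0.955 for Fgg and 0.951 for Apob. Without KO replicate 3 alone, r was 0.533 for Apoa1, 0.484 for Apoa2, 0.319 for Ttr and -0.0997 for Ahsg, against 0.993 for Afp and 0.980 for Trf. For those 4 members the value thus depended on both libraries: without WT replicate 3 alone their r was 0.931 to 0.983.

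**Figure D2:**
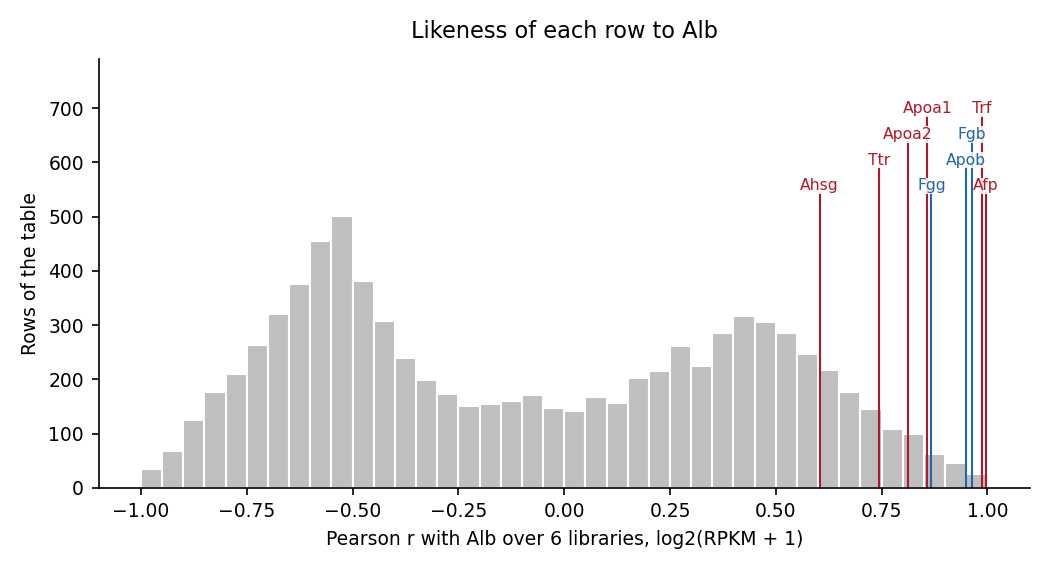
Histogram of Pearson r with Alb over 6 libraries (x axis) for the 8301 other rows with a mean of at least 1 RPKM (y axis, number of rows), with the members as vertical lines (red, tested; blue, below 1 RPKM). The members lie from 0.603 (Ahsg) to 0.997 (Afp), and the median of all rows is -0.14.

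In WT replicate 3 the members with longer and shorter transcripts differed. Whether the second component goes with transcript length was not tested. WT replicate 3 was set against the mean of WT replicates 1 and 2. The 4 members with transcripts under 1.5 kb were then higher, by a log2 ratio of 0.65 for Ahsg, 0.45 for Apoa2, 0.42 for Ttr and 0.21 for Apoa1. The 6 members over 1.7 kb were lower, at -0.60 for Fgb, -1.13 for Trf, -1.21 for Alb, -1.30 for Fgg, -1.31 for Afp and -2.75 for Apob, whose transcript of 13.9 kb is the longest. The median of all tested rows was 0.04. This split of the members was made after the values were seen, and on unscaled RPKM. As shares of a library's RPKM sum, the 4 shorter members were lower in WT replicate 3 than in WT replicates 1 and 2. KO replicate 3 was below the mean of KO replicates 1 and 2 for all 10 members, from -1.56 for Fgg to -3.49 for Fgb. The median over all tested rows was 0.08. The split by length was not repeated there. Fgg, the least lowered, is among the longer members, and the shorter Apoa1 was at -2.72 against -2.64 for the longer Trf. Across the 10 members the Spearman rho of these ratios with length was -0.71 in WT replicate 3 and -0.70 in KO replicate 3, as descriptions of members that share a library. Pairs of members within the group of 6 longer transcripts had a median r of 0.95 and pairs within the 4 shorter ones 0.95, while pairs across had 0.69. The part of transcript length in these differences was not tested.

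**Figure D3:**
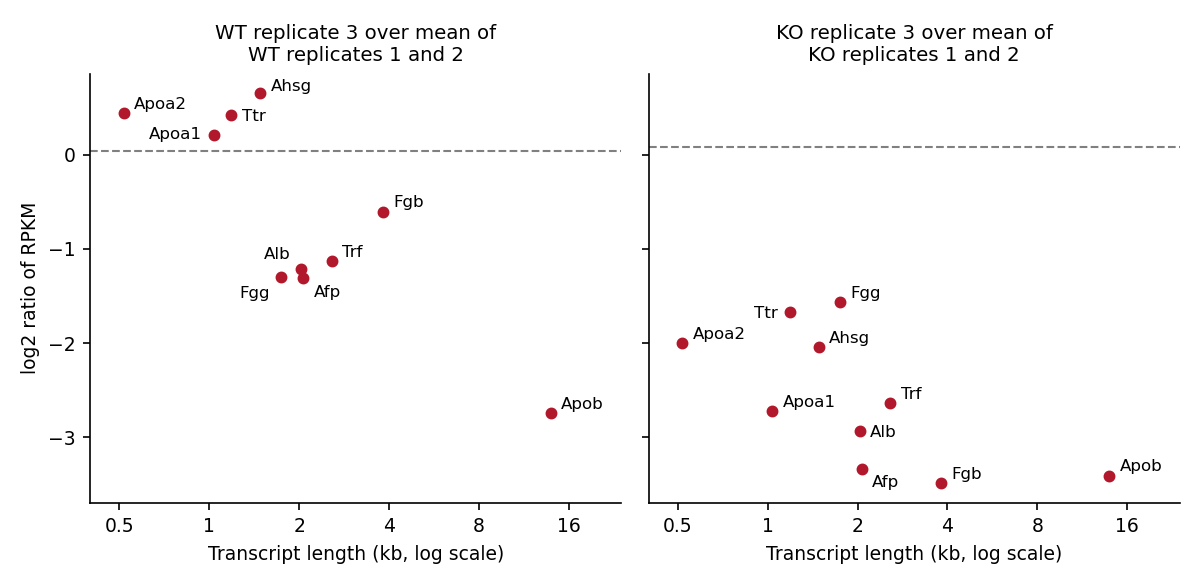
Log2 ratio of RPKM of the lowest-level library of each group over the mean of the group's other libraries (y axis; left, WT; right, KO) against annotated transcript length (kb, log scale) for the 10 members; the dashed line is the median of all tested rows. In WT replicate 3 the 4 shortest members lie above the line and the 6 others below, and in KO replicate 3 all 10 lie below. The values are not scaled to the RPKM sum of a library.

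The comparison of KO with WT asks whether loss of Tfam goes with a change in these transcripts. No member passed the test. With limma on log2(RPKM + 1), 0 of the 7 tested members passed an adjusted p of 0.05 and 0 had an unadjusted p under 0.05. Over all rows 0% passed and 1.2% (100 of 8302) had an unadjusted p under 0.05. The groups overlapped in all 10 members, where 4.54% of tested rows had groups that did not overlap. Fitted values of the 7 were above WT in 3 and below it in 4, with a median log2 fold change of -0.05 (-0.02 over all tested rows).

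The log2 fold change of Alb was -0.05 (SE 0.75, 95% interval -1.82 to 1.72, limma adjusted p = 0.986), from means of 22.1 ± 17.5 RPKM in KO and 18.0 ± 8.84 in WT (SD, n = 3). The mean of Alb was thus higher in KO while the mean of its log2 values was lower. For Afp it was 0.09 (interval -1.92 to 2.11), for Trf 0.20 (-1.25 to 1.64) and for Apoa2 0.01 (-1.06 to 1.08). For Apoa1 it was -0.29 (-1.46 to 0.88), for Ttr -0.16 (-0.91 to 0.59) and for Ahsg -0.48 (-1.31 to 0.35). The limma adjusted p of these 6 lay between 0.909 and 0.996. The intervals are wide, so changes of more than 1 log2 unit in either direction were not excluded for Alb, Afp, Trf and Apoa2. The 3 members below 1 RPKM had exact two-sided permutation p-values of 0.9 (Fgb), 0.6 (Fgg) and 0.8 (Apob).

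For Alb, Afp and Trf the sign turned with the library left out, while Ahsg stayed below 0 on each single omission (-0.84 to -0.15). Without KO replicate 3 the log2 fold change was 0.82 for Alb, 1.10 for Afp and 0.91 for Trf. Without KO replicate 2 it was -0.67, -0.59 and -0.31. Without WT replicate 3 it was -0.42, -0.31 and -0.12. With WT replicate 3 and KO replicate 3 both left out, a choice made after the data were seen, it was 0.46 for Alb and ran from 0.0036 for Ahsg to 0.71 for Afp, with no member called.

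**Figure D4:**
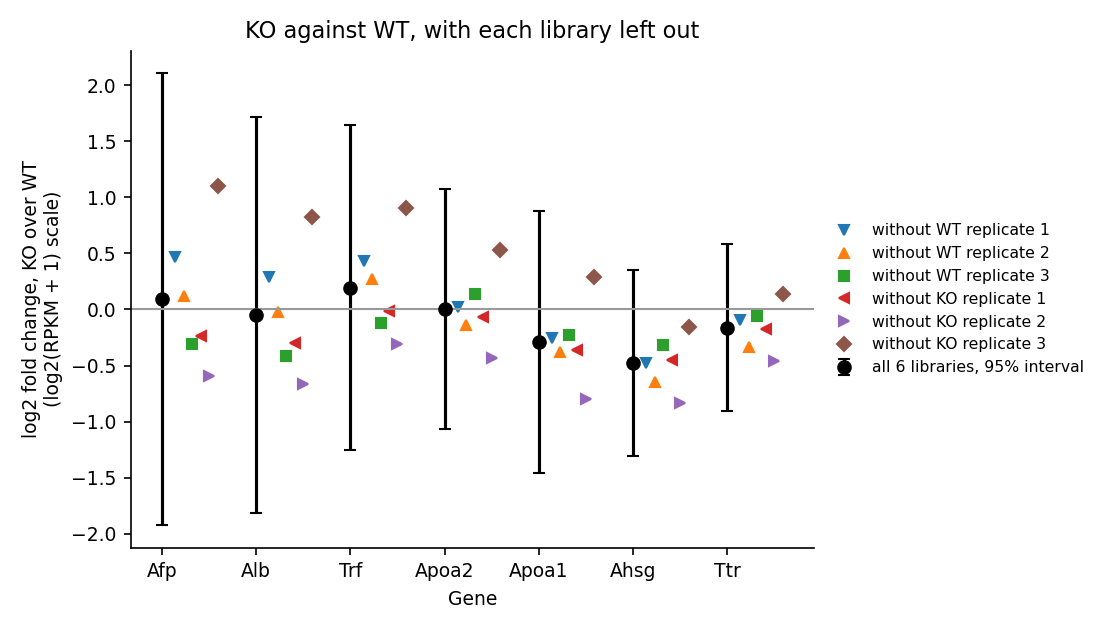
Log2 fold change of KO over WT on the log2(RPKM + 1) scale (y axis) for the 7 tested members; black points with bars are all 6 libraries with 95% intervals, and coloured symbols leave out 1 library each. Every interval crosses 0, and for Alb the value runs from -0.67 without KO replicate 2 to 0.82 without KO replicate 3.

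Other genes of the liver cell program were read from lists of known genes. Among 42 further secreted plasma protein genes, 41 were found as rows and 9 reached a mean of 1 RPKM, of which 0 passed the limma test and 0 had an unadjusted p under 0.05, with 6 higher and 3 lower fitted values in KO (median log2 fold change 0.07). Of these 9, 7 had an r of at least 0.8 with Alb. Apoe, a lipoprotein ligand that macrophages also make, was highest at 10.2, 8.57 and 17.1 RPKM in WT and 9.90, 16.1 and 4.91 in KO. Rbp4, the plasma retinol carrier that travels with transthyretin, was at 5.44, 2.77 and 1.85 RPKM in WT and 4.98, 6.74 and 0.723 in KO. Apoe had its highest unscaled level in WT replicate 3, as Ahsg did. Its share of a library's RPKM sum was highest in KO replicate 2, again as for Ahsg. The order of the libraries for Rbp4 was that for Alb. Ambp, the alpha-1-microglobulin precursor, and Serpinf2, the plasmin inhibitor, had mean levels of 2.35 and 2.18 RPKM and r with Alb of 0.971 and 0.834. Apoc3, Apoa4 and Apoa5 were listed at 0 in all libraries.

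The regulators of liver cells were near the limit of detection. Of 16 hepatocyte transcription factors 0 reached a mean of 1 RPKM, and their sum was 0.594 to 1.011 RPKM in WT and 0.506 to 1.39 in KO. Cebpa, a C/EBP factor, was highest at a mean of 0.361 RPKM, Hnf4a followed at 0.176, Foxa3 was at 0.103 and Foxa1 at 0.0361. Nr0b2 was listed at 0. Hepatoblast and biliary surface and cytoskeleton genes summed to 1.53 to 2.63 RPKM in WT and 1.10 to 4.67 in KO. Dlk1, a surface protein of fetal liver hepatoblasts, had the highest mean of these, at 1.77, 1.006 and 0.389 RPKM in WT and 2.38, 3.005 and 0.320 in KO, with r = 0.927 with Alb (exact permutation p adjusted over all rows, 0.509). The keratins Krt18 and Krt8 had means of 0.361 and 0.332 RPKM and the cadherin gene Cdh1 0.0723, and Krt7, Epcam and Cldn3 were listed at 0.

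Metabolic enzymes of hepatocytes had their highest unscaled sum in WT replicate 3, where the sum of the 10 members was second lowest. As a share of all RPKM in a library, the enzyme sum was also second lowest in WT replicate 3. The 25 enzyme genes summed to 4.43 to 8.01 RPKM in WT and 4.94 to 6.04 in KO. Fah, the last enzyme of tyrosine breakdown, was the one gene tested, at a mean of 1.57 RPKM with r = 0.041 with Alb. Cyp2e1, a cytochrome P450, had a mean of 0.876 RPKM and the fatty acid binding protein gene Fabp1 0.742. Fabp1 was at 1.56 RPKM in WT replicate 3 and below 1 in the other libraries. Its share of a library's RPKM sum was highest in KO replicate 2. Tat, Fbp1, G6pc, Cyp3a11 and Cyp8b1 were listed at 0.

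Over all tested rows, the 10 non-member rows most like Alb by Pearson r over 6 libraries had r of 0.971 to 0.994. They were Serpina6, Zyx, Rbp4, Slc15a2, Omd, Sc4mol, Shkbp1, G6pc3, Itih2 and Ambp, in this order. Serpina6, the corticosteroid carrier, was at 4.28, 3.23 and 1.97 RPKM in WT and 3.86, 6.27 and 1.11 in KO. Rbp4, Itih2 and Ambp also encode plasma proteins. Zyx, an actin-associated adhesion protein, was at 3.53, 2.94 and 1.53 RPKM in WT and 2.97, 4.70 and 0.656 in KO. Slc15a2, a peptide transporter, was at 8.08 RPKM in KO replicate 2 and 0.0225 in KO replicate 3. Their exact permutation p adjusted over all rows was 0.452 for each.

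Markers of other cell types were measured beside the secreted proteins. Megakaryocyte markers (8 of 10 tested, 0 at 0) summed to 88.4, 81.9 and 43.8 RPKM in WT and 85.2, 100.05 and 31.0 in KO, with the same 2 lowest libraries as the sum of the 10 members, and 5 of 8 had an r of at least 0.8 with Alb. Pf4, a platelet chemokine, was at 24.2, 19.7 and 4.67 RPKM in WT and 18.3, 26.8 and 1.17 in KO (r = 0.969). Gp9, a platelet surface glycoprotein, had r = -0.0861, and Itga2b shares its row with Gpatch8 (r = 0.791). Endothelial markers, 0 of 15 of them tested and 0 listed at 0, summed to 2.39 to 3.57 RPKM in WT and 2.16 to 4.28 in KO, led by Kdr, Lyve1 and Stab1.

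Unscaled sums of myeloid markers took another order. Granulocyte markers (6 of 10 tested) summed to 40.1, 40.9 and 174.6 RPKM in WT and 29.4, 75.8 and 55.9 in KO, led by S100a8, S100a9 and Mpo, with 0 of 6 at an r of 0.8. Mpo, the myeloperoxidase gene, was just under that bound (r = 0.786, rho = 0.829), with its highest level of 6.82 RPKM in KO replicate 2 and its lowest of 2.75 in KO replicate 3. Macrophage markers (7 of 14 rows tested, Vsig4 and Cd163 listed at 0) summed to 18.1, 17.7 and 34.1 RPKM in WT and 11.8, 18.3 and 8.90 in KO, led by Lyz2, C1qb and C1qc, with 0 of 7 at that r. Scaled to a library's RPKM sum, the granulocyte sum stayed highest in WT replicate 3. The macrophage sum was then lowest in KO replicate 3 and narrowly highest in KO replicate 2, the extremes of the secreted proteins. Stellate and mesenchymal markers (1 of 15 tested) summed to 7.64 to 14.6 RPKM in WT and 10.4 to 14.7 in KO. Of this list Reln gave most, at a mean of 10.1 RPKM, and the collagens Col1a1 and Col1a2 had means of 0.385 and 0.326. Of the 18 erythroblast markers 0 reached an r of 0.8 with Alb. The part of these other cell types in the levels of the secreted proteins was not tested.

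**Figure D5:**
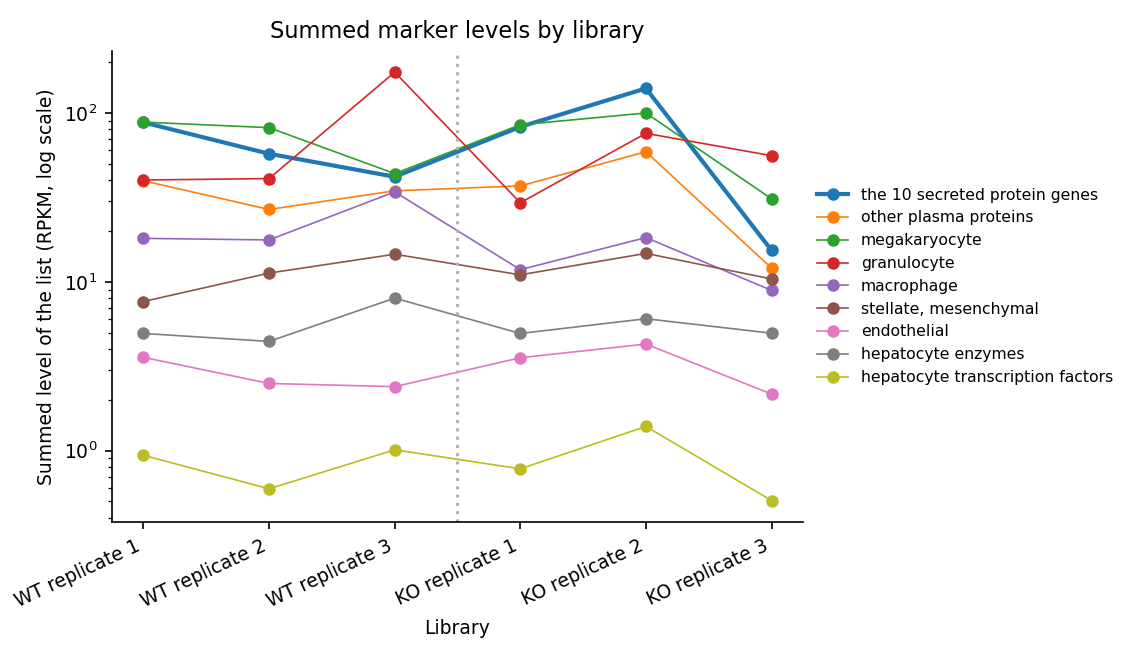
Summed level of each marker list (RPKM, log scale) in the 3 WT and 3 KO libraries, 1 point per list and library. The 10 secreted protein genes (thick line), the megakaryocyte markers and the endothelial markers are each lowest in WT replicate 3 and KO replicate 3. The granulocyte sum is highest in WT replicate 3 at 174.6 RPKM.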

How the data were processed

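The deposited table holds RPKM values that the authors made with TopHat and Cufflinks on build mm9, per the submitters' processing notes. The sources used here do not give versions, the annotation or the strandedness of counting. The 25 rows named by a number were left out, and each member was read from its one row. A listed 0 can be a failed estimate.

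Rows with a mean of at least 1 RPKM (8302) were log2(RPKM + 1) transformed and compared with limma (version 3.58.1, R version 4.3.3), using its trend option and Benjamini-Hochberg adjustment over all rows at 0.05. This scale understates changes of low genes. Correlations and permutation tests used Python 3.11.15 with scipy 1.17.1 and enumerated all orders. Both were tested on simulated data. Transcript lengths are the longest protein-coding transcript in GENCODE M21. Read numbers are approximate, since they combine those lengths with the estimated value of 1 read, and no interval is given.

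The named genes are all members, Tfam, the 10 rows most like Alb, the top 4 by mean of each liver list and the top 3 of each list of other cell types. The genes listed at 0 and the small RNAs were named after their values were seen. A gene that the rule names among the liver lists is not reported here. The members, lists and motifs were chosen with earlier results of these data known.

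Both groups use replicate numbers 1 to 3. Between same-numbered libraries the correlation of deviations from group means was 0.46, 0.17 and 0.53. The libraries were therefore treated as paired in an alternative fit, on the strength of the data and not of a label.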

Additional observations from a re-analysis of the deposited data

How the results depend on the processing

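No setting called a member: over all settings the limma adjusted p of the 7 tested members ran from 0.660 to 1. The replicate block left the log2 fold changes unchanged and called 0 rows, as with all libraries unpaired. Over all rows, leaving out single replicates called 0 to 2 rows, with Snord67 called when WT replicate 3 was omitted (1 row), Mir135a-1 and Snord88c when KO replicate 2 was (2 rows) and Snord96a when KO replicate 3 was (1 row), and leaving out WT replicate 3 and KO replicate 3 together, chosen after seeing the data, called 2 (Snord67 and Snord96a). None is a member. Signs of the log2 fold changes of the 7 tested members turned in 21 cases. Among the 3 members below 1 RPKM, Fgb turned to 0.045 (scaled to the RPKM sum), 0.10 (WT replicate 1 omitted), 0.24 (KO replicate 3 omitted) and 0.17 (both replicates 3 omitted), Apob to -0.057 (WT replicate 3 omitted) and -0.053 (KO replicate 2 omitted), and Fgg to -0.037 (KO replicate 2 omitted). For Alb the value was 0.16 when scaled to the RPKM sum, 0.012 after quantile normalization, 0.82 without KO replicate 3, 0.29 without WT replicate 1 and 0.46 without both replicates 3. For Afp it was -0.31, -0.24 and -0.59 on omission of WT replicate 3, KO replicate 1 or KO replicate 2. For Trf the same omissions gave -0.12, -0.011 and -0.31. Apoa2 was at 0.66 without both replicates 3. It was -0.036 with log2(RPKM + 0.1), and -0.14, -0.071 and -0.43 on omission of WT replicate 2, KO replicate 1 or KO replicate 2. For Apoa1 it was 0.29 without KO replicate 3 and 0.35 without both replicates 3. For Ttr it was 0.0065 when scaled to the RPKM sum, 0.14 without KO replicate 3 and 0.24 without both. For Ahsg it was 0.0036 without both, and its r with Alb was -0.0997 without KO replicate 3. The cause was not tested. Leaving out 1 replicate gave log2 fold changes of -0.67 to 0.82 for Alb, -0.59 to 1.10 for Afp, -0.31 to 0.91 for Trf, -0.43 to 0.53 for Apoa2, -0.80 to 0.29 for Apoa1, -0.46 to 0.14 for Ttr and -0.84 to -0.15 for Ahsg, and an r of Ahsg with Alb of -0.0997 to 0.931. With 3 libraries a group, and about 6 to 132 reads behind Fgg and Apob, small changes were not detectable.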
